A study of Solanum lycopersicum var. cerasiforme with 6 samples.

Results

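The loci described here are the run of tomato chromosome 5 genes with identifiers from Solyc05g012900 to Solyc05g013900, taken in identifier order. The count files list 99 such loci among 34081 rows, and these 99 rows follow each other in the files with no other row between them. RNA came from young inflorescences of Solanum lycopersicum var. cerasiforme, collected while the largest floral bud was under 2 mm long. All plants were F3 progeny in which fw2.3, a locus that affects fruit weight, segregated, and all grew unpruned in one randomly arranged greenhouse planting. The fw2.3-D group carried the derived allele and the fw2.3-WT group the wild-type allele, with 3 pools each. Every pool joined equal RNA from 2 plants of its genotype. No label states alleles at other loci, the age of the plants or the parents of the cross, so the groups are known to differ only by the label at fw2.3.

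The block was chosen by its measured CPM: earlier values of these same pools showed neighbouring loci in it at lower levels in fw2.3-D. All differences between the genotypes below are therefore descriptions of the chosen loci and carry no test of their own. As background, genes that lie close together on a chromosome tend to be inherited together, and F3 plants of a cross can still carry different alleles away from a locus that was followed. Neighbouring genes can also share regulatory sequence, and transcripts of neighbours can overlap. Because the libraries carry no strand information, reads from transcripts that overlap on opposite strands cannot be told apart, and whether any of these neighbours share reads was not tested. The files pair no identifier with a gene name or function, and 0 identifiers matched the reference gene table used here, so no roles are given and the tissue could not be checked against named marker genes. No sequences are shown for the same reason.

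Depth was similar across pools, at 22303511 to 28504360 counts. A locus without reads in a pool could still lie at up to 0.105 to 0.135 CPM, the worth of 3 counts, an allowance for counting error alone. Levels are CPM, counts scaled to the library total with TMM factors. Levels of different genes are compared as RPKM, which divides by gene length, with 2 exceptions. The highest members are listed by CPM, and CPM ratios of neighbours are followed from pool to pool, both without regard to gene length. All pairs of pools differed by more than sampling noise, with a chi-square of 13.5 (the first pools of the 2 genotypes) to 52.9 per gene.

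Of the 99 members, 71 had enough counts to be tested. The other 28 were split between 19 with no read in any pool and 9 with 2 to 44 counts over all 6 pools, and no pool held more than 17 counts of any of the 28. The tested members covered a wide range of levels. Mean RPKM ran from 0.197 for Solyc05g013180 to 102 for Solyc05g013030 and for Solyc05g013820. The median was 11.1 RPKM, against 13.1 RPKM over all 20942 tested rows. The gene lengths that the deposited RPKM imply ran from 312 to 6016 bases, with a median of 1715 bases against 1427 bases over all tested rows.

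As a whole the block did not have lower values in fw2.3-D, which goes against its working description. Of the 71 tested members, 37 had a log2 fold change (fw2.3-D over fw2.3-WT) below 0 and 34 above 0. The median was -0.01, beside 0.00 over all tested rows. The log2 fold change lay between -0.5 and 0.5 in 64 members (90.1%), against 92.8% of all tested rows. The CPM summed over the tested members stood at 2643, 2392 and 2451 in the fw2.3-D pools and at 2743, 2612 and 2517 in the fw2.3-WT pools. The summed levels of the genotypes overlapped, and the fw2.3-D mean was 0.951 of the fw2.3-WT mean. In bulk tissue, fewer cells of a type and less RNA per cell cannot be told apart.

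No member passed the test over all genes. By the quasi-likelihood test of edgeR, 0 of the 71 members were called at an adjusted p under 0.05, against 0.0239% of all tested rows (5 of 20942), and the lowest adjusted p among the members was 0.565. At an unadjusted p under 0.05, edgeR placed 7 members as lower in fw2.3-D and 1 as higher, where the shares over all tested rows were 1.5% and 2.06%. DESeq2 called 2 members, Solyc05g013260 and Solyc05g013320, both lower in fw2.3-D, against 0.229% of all tested rows. In 7 members every fw2.3-D pool lay below every fw2.3-WT pool, and in 1 member above, against 4.34% and 5.15% of all tested rows. Since the rule used this contrast, nothing is read from these shares.

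**Figure D1:**
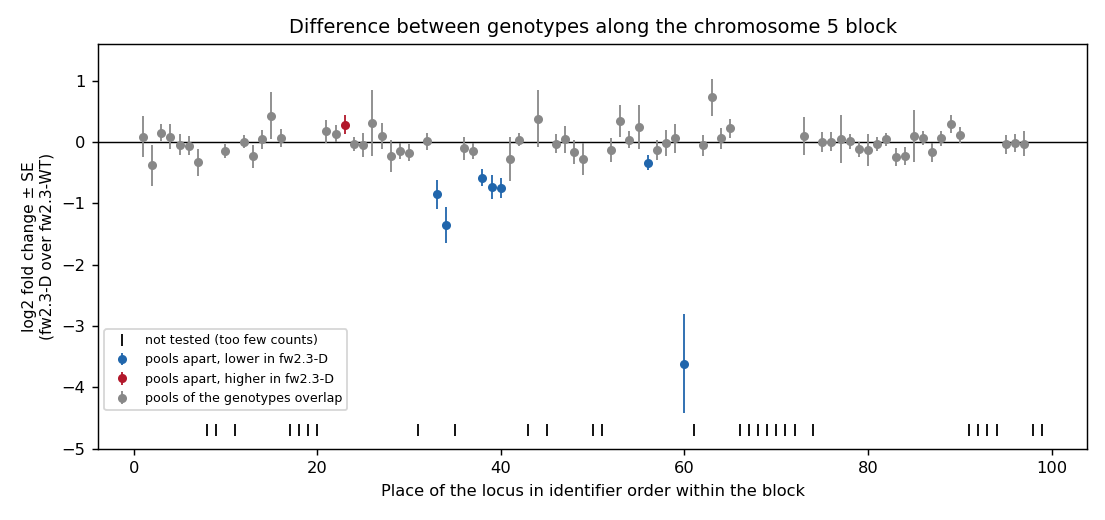
Log2 fold change (vertical axis, fw2.3-D over fw2.3-WT, ± SE from edgeR) of each tested member against its place in identifier order (horizontal axis, 1 to 99); ticks at the bottom mark the 28 members that were not tested. Most points lie near 0, 5 of the 7 blue points stand close together between places 33 and 40, and the lowest point is Solyc05g013530.

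Most of the loci with lower pools lay in a short stretch. The longest unbroken series of tested members with a log2 fold change below 0 held 8 loci, from Solyc05g013250 to Solyc05g013330, and 5 of them were among the 7 whose pools did not overlap. This stretch was picked out after its values were seen. Over all tested rows, 68 such series of 8 or more loci occurred, the longest with 19, and they took in 2.98% of the rows. The median log2 fold change was -0.65 in the stretch and 0.01 in the 63 other tested members.

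Solyc05g013250 opens the stretch. It stood at 2.72, 2.72 and 2.78 CPM in the fw2.3-D pools and at 4.09, 5.05 and 5.69 CPM in the fw2.3-WT pools. The fw2.3-D pools were nearly equal, and each lay below the lowest fw2.3-WT pool. The means were 2.74 ± 0.0331 and 4.95 ± 0.804 CPM (SD, n = 3), a 1.81-fold lower level (log2 fold change -0.85, SE 0.236). These levels rest on 68 to 141 counts per pool.

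The next member, Solyc05g013260, had the largest difference in the stretch. Its CPM was 3.29, 2.16 and 4.36 in fw2.3-D versus 6.29, 10.1 and 8.44 in fw2.3-WT. Replicate 2 was the lowest of the fw2.3-D pools and the highest of the fw2.3-WT pools, and the genotypes did not overlap. Means of 3.27 ± 1.10 and 8.29 ± 1.93 CPM (SD, n = 3) gave a 2.54-fold lower level in fw2.3-D, a log2 fold change of -1.34 (SE 0.293). Its deduced length is 3333 bases, and at 1.74 RPKM it was the least abundant of the 8 loci per length.

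The following 3 loci of the stretch differed little or had no reads. Solyc05g013270 had no read in any pool. Solyc05g013280, the longest tested member at 6016 bases, stood at 46.5, 31.7 and 54.0 CPM in fw2.3-D versus 42.1, 53.6 and 46.1 CPM in fw2.3-WT, with a log2 fold change of -0.10 (SE 0.186). Its fw2.3-WT pools all lay within the range of the fw2.3-D pools. Solyc05g013290 had 18.5, 23.2 and 20.4 CPM in fw2.3-D versus 20.7, 24.0 and 23.8 CPM in fw2.3-WT, a log2 fold change of -0.14 (SE 0.137), again with overlap. The lower values at the start of the stretch and those that follow are thus separated by loci with little difference.

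Solyc05g013300, Solyc05g013310 and Solyc05g013320 come next in identifier order, and all had pools that did not overlap. Solyc05g013300 stood at 29.6, 33.0 and 34.2 CPM in fw2.3-D versus 46.0, 56.6 and 42.0 CPM in fw2.3-WT. Its means of 32.3 ± 2.38 and 48.2 ± 7.52 CPM (SD, n = 3) differed 1.49-fold, a log2 fold change of -0.58 (SE 0.136). The fw2.3-WT pools varied more than the fw2.3-D pools, with replicate 2 the highest.

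Solyc05g013310 is the shortest of these, at 456 bases. It had 12.5, 11.7 and 17.9 CPM in fw2.3-D versus 18.4, 26.4 and 24.9 CPM in fw2.3-WT. The groups came close, since the highest fw2.3-D pool lay just under the lowest fw2.3-WT pool. Its means were 14.0 ± 3.34 and 23.2 ± 4.21 CPM (SD, n = 3), a 1.66-fold lower level (log2 fold change -0.73, SE 0.199).

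Solyc05g013320 had the highest level per length in the stretch, 50.5 RPKM, followed by Solyc05g013300 at 41.4 RPKM and Solyc05g013310 at 41.0 RPKM. Its CPM was 36.4, 31.0 and 38.3 in fw2.3-D versus 50.5, 74.1 and 52.6 in fw2.3-WT. Replicate 2 of fw2.3-WT stood well above the other pools. Means of 35.2 ± 3.77 and 59.1 ± 13.1 CPM (SD, n = 3) gave a 1.68-fold lower level in fw2.3-D and a log2 fold change of -0.75 (SE 0.163). The last locus of the stretch, Solyc05g013330, had 1.15 to 2.28 CPM in fw2.3-D versus 1.74 to 2.73 CPM in fw2.3-WT, which overlapped.

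**Figure D2:**
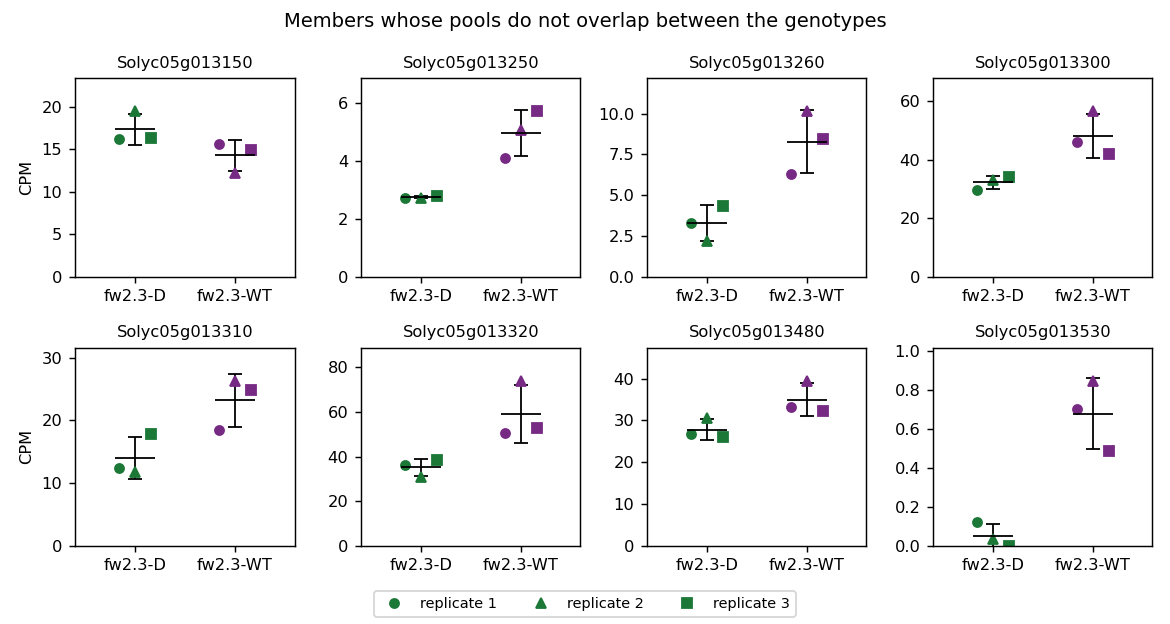
CPM (vertical axis, from 0) in each pool of the 8 members whose pools did not overlap between the genotypes; symbols stand for replicates and bars for the mean ± SD (n = 3). In 7 panels the fw2.3-D pools lie below the fw2.3-WT pools, and in that of Solyc05g013150 they lie above.

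Within a genotype, most loci of the stretch had the same pools highest and lowest, a pattern picked out after its values were seen. Among the fw2.3-D pools, replicate 3 was the highest in 6 of the 8 loci and replicate 2 the lowest in 6. Over all tested rows these shares were 34.1% and 32.2%. Both fw2.3-D counts include Solyc05g013250, whose fw2.3-D pools were nearly equal at 2.72, 2.72 and 2.78 CPM, so its ranks say little. Among the fw2.3-WT pools, replicate 2 was the highest in 6 and replicate 1 the lowest in 6, against 36.4% and 33.5% of all tested rows. Both of these highest pools occurred together in 5 of the 8 loci, in 16 of the 71 members (22.5%) and in 17.8% of all tested rows. Adjacent loci of the stretch lay on the same side of their genotype means in 2 to 5 of the 6 pools. Summed over the 8 loci, the level was 152, 137 and 174 CPM in fw2.3-D versus 191, 252 and 205 CPM in fw2.3-WT, without overlap. Over the 63 other tested members it was 2491, 2256 and 2278 CPM in fw2.3-D versus 2552, 2360 and 2312 CPM in fw2.3-WT, where the genotypes overlapped. The 8 loci were chosen for log2 fold changes below 0, so both sums are descriptions and no test.

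**Figure D3:**
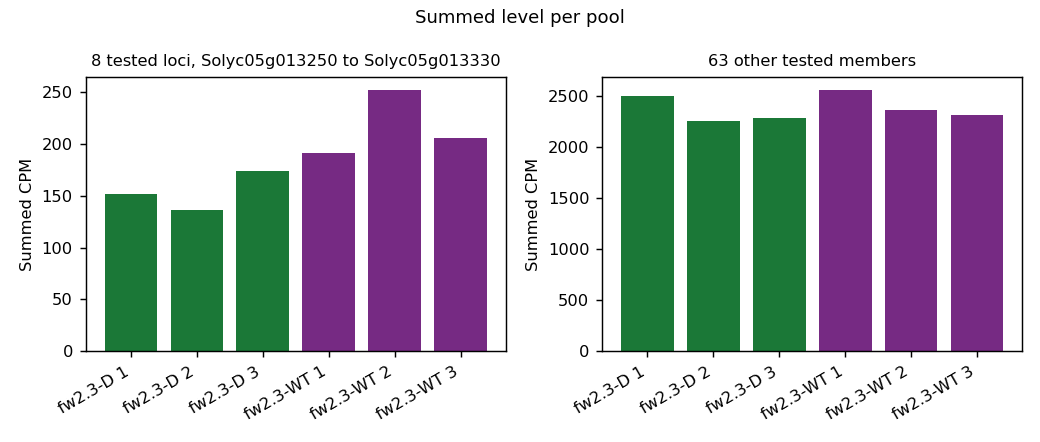
CPM summed over the 8 tested loci from Solyc05g013250 to Solyc05g013330 (left) and over the 63 other tested members (right), 1 bar per pool, vertical axes from 0. The 3 fw2.3-D bars on the left reach 137 to 174 CPM and the fw2.3-WT bars 191 to 252 CPM, while the bars on the right overlap between genotypes. The 8 loci were chosen for log2 fold changes below 0.

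Neighbours of the stretch did not keep a fixed ratio from pool to pool. The CPM of Solyc05g013320 divided by that of Solyc05g013300 ran from 0.942 to 1.31 over the 6 pools. For Solyc05g013310 over Solyc05g013300 the ratio ran from 0.356 to 0.592. Solyc05g013260 over Solyc05g013250 varied most, from 0.795 to 2.01, with the lowest ratio in replicate 2 of fw2.3-D and the highest in replicate 2 of fw2.3-WT.

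The other members whose pools were apart and lower in fw2.3-D, Solyc05g013480 and Solyc05g013530, stood alone. Solyc05g013480 had 26.8, 30.6 and 26.0 CPM in fw2.3-D versus 33.3, 39.5 and 32.2 CPM in fw2.3-WT. The groups did not overlap, but the gap between them was narrow. The means were 27.8 ± 2.46 and 35.01 ± 3.97 CPM (SD, n = 3), 1.26-fold lower (log2 fold change -0.33, SE 0.130).

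Solyc05g013530 had hardly any reads in fw2.3-D. It was outside the rule for named genes because its mean was below 1 CPM, and was singled out after its values were seen. It drew 3, 1 and 0 reads in fw2.3-D versus 17, 19 and 12 in fw2.3-WT, and passed the filter on low counts only through the fw2.3-WT pools. All fw2.3-D pools were at or below the floor of 3 counts, and all fw2.3-WT pools were above it. With 4 counts against 48 summed over the pools, the level in fw2.3-WT was 13.5 times that in fw2.3-D. The exact 95% interval of 4.93 to 51.4 covers counting error only. The locus was singled out after these counts were seen, so the interval is a description and no test. Its fitted log2 fold change of -3.61 (SE 0.807) depends on how small counts are treated. The value was -3.74 with DESeq2, -2.48 on the log2(RPKM + 0.1) scale and -0.71 on the log2(RPKM + 1) scale. The last must be small, since the added 1 exceeds the RPKM of this locus in every pool (at most 0.902). The next locus, Solyc05g013535, was not tested, with counts of 1, 0 and 0 (fw2.3-D) versus 0, 3 and 2 (fw2.3-WT).

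A single member had higher values in every fw2.3-D pool. Solyc05g013150 stood at 16.3, 19.5 and 16.3 CPM in fw2.3-D versus 15.7, 12.2 and 14.98 CPM in fw2.3-WT. The groups were separated by less than the spread within either. Its log2 fold change was 0.28 (SE 0.153). Solyc05g013560 had the highest log2 fold change of the block, 0.73 (SE 0.301), but its pools overlapped, at 4.57, 9.65 and 7.98 CPM in fw2.3-D versus 5.09, 3.26 and 5.01 CPM in fw2.3-WT; it too was chosen after its values were seen.

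The members with the highest CPM differed little between the genotypes. Solyc05g013440 had 266, 184 and 192 CPM in fw2.3-D versus 293, 218 and 191 CPM in fw2.3-WT, a log2 fold change of -0.13 (SE 0.194). In both genotypes its first pool was the highest. Solyc05g013030 stood at 138, 129 and 125 CPM in fw2.3-D versus 129, 133 and 128 CPM in fw2.3-WT, a log2 fold change of 0.01 (SE 0.107). It was nearly level over all pools.

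Solyc05g013820 had 133, 148 and 122 CPM in fw2.3-D versus 135, 108 and 131 CPM in fw2.3-WT, a log2 fold change of 0.11 (SE 0.131). Solyc05g013220 had 136, 114 and 109 CPM in fw2.3-D versus 155, 124 and 127 CPM in fw2.3-WT, a log2 fold change of -0.17 (SE 0.137). Solyc05g013380 had 137, 105 and 97.9 CPM in fw2.3-D versus 134, 106 and 105 CPM in fw2.3-WT, a log2 fold change of -0.02 (SE 0.158). In these 3 members the genotypes overlapped, and in Solyc05g013220 and Solyc05g013380 the first pool of each genotype was the highest, as in Solyc05g013440. Both first pools lay above all other pools in 12 of the 71 members (16.9%) and below them in 6 (8.45%), against 11.9% and 9.97% of all tested rows. What sets the first pools apart was not tested.

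Over the whole block, agreement between neighbouring members pool by pool was close to that over all tested rows. For each of the 70 pairs of adjacent tested members, pools were counted in which both lay on the same side of their own mean. They made up 53.3% of the comparisons, against 52.5% over 20929 adjacent pairs of all tested rows. With deviations taken from the mean of each genotype, the shares were 53.8% and 52.7%. Agreement in all 6 pools occurred in 3 pairs (4.29%), against 4.25% over all tested rows. These were Solyc05g013250 with Solyc05g013260, Solyc05g012955 with Solyc05g013010, and Solyc05g013740 with Solyc05g013750. With deviations from the genotype means, each of these 3 pairs agreed in 5 of 6 pools, and all 6 pools agreed in 2.86% of the pairs of the block against 4.95% over all tested rows. For Solyc05g013250 with Solyc05g013260, agreement in all 6 pools restates the genotype difference by which the block was chosen.

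The direction of the genotype difference was shared by 61.4% of the adjacent pairs in the block, 23 pairs with both lower in fw2.3-D and 20 with both higher, against 52.2% over all tested rows. Adjacent members with both sets of pools apart and lower in fw2.3-D made up 3 of the 70 pairs (4.29%), all within the stretch, against 0.291% over all tested rows. The rule for the block used this property, so it is given as a description.

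**Figure D4:**
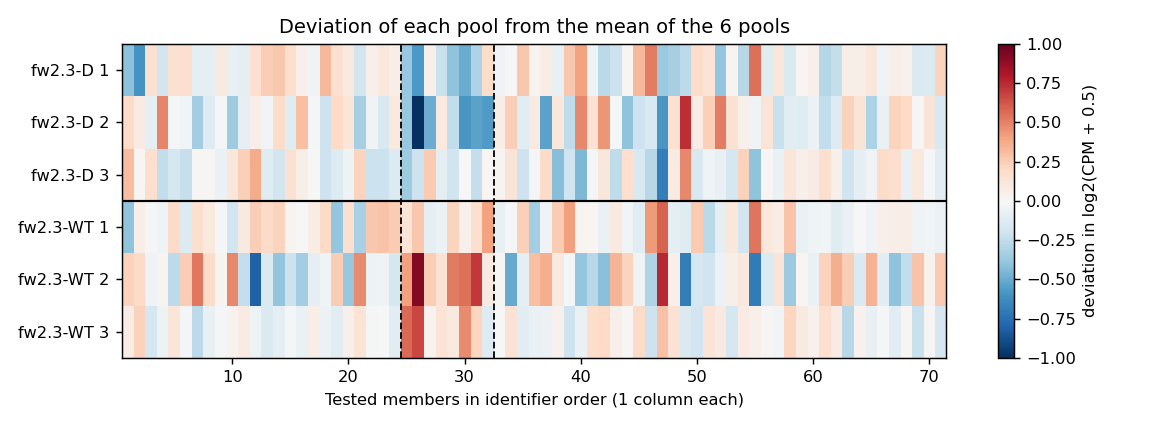
Deviation of each pool (rows) from the mean of the 6 pools in log2(CPM + 0.5), for the 71 tested members in identifier order (columns); red is above and blue below the mean, with colours limited to 1 unit either way, and dashed lines bound the 8 loci from Solyc05g013250 to Solyc05g013330. Within the dashed lines, bounding loci chosen for log2 fold changes below 0, most fw2.3-D cells are blue and most fw2.3-WT cells red. Elsewhere the colours change from column to column.

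At both ends of the block the genotypes overlapped. The first tested member, Solyc05g012900, had 1.68, 2.82 and 3.10 CPM in fw2.3-D versus 1.70, 2.90 and 2.54 CPM in fw2.3-WT. The last, Solyc05g013870, had 9.54, 7.25 and 7.50 CPM in fw2.3-D versus 7.78, 9.79 and 7.15 CPM in fw2.3-WT. The nearest tested loci outside were Solyc05g012870 and Solyc05g012890 before the block, with log2 fold changes of -0.70 (SE 0.472) and 0.15 (SE 0.262). After it came Solyc05g013905 and Solyc05g013930, with 0.20 (SE 0.133) and -0.03 (SE 0.146).

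The outside loci also overlapped between the genotypes. Solyc05g012870 had 0.561, 0.488 and 0.675 CPM in fw2.3-D versus 0.827, 1.39 and 0.606 CPM in fw2.3-WT, and Solyc05g012890 had 6.93, 7.04 and 11.4 CPM against 5.58, 9.34 and 7.95 CPM. Solyc05g013905 had 35.5, 32.8 and 33.2 CPM in fw2.3-D versus 33.7, 25.02 and 29.6 CPM in fw2.3-WT, and Solyc05g013930 had 21.5, 26.9 and 26.9 CPM against 22.5, 25.4 and 29.0 CPM.

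Loci with lower values also occurred beyond the block. Among the 50 tested loci before it, 24 had a log2 fold change below 0, with a median of 0.01; 7 had pools apart and lower in fw2.3-D and 2 apart and higher, where the shares over all tested rows are 4.34% and 5.15%. Among the 50 after it, 32 (64.0%) were below 0, with a median of -0.11; 5 had pools apart and lower and 3 apart and higher. Over the rest of chromosome 5, 50.1% of 1316 tested loci were below 0, with a median of 0.00; 61 had pools apart and lower and 75 apart and higher. The block itself, at 52.1% below 0, lay between these flanks.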

How the data were processed

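The members and lists were chosen with earlier results of these data known. Per the file headers, the authors deposited raw counts of reads for 34081 rows, taken from sorted alignments, and a separate RPKM table of 34075 rows, scaled to gene length and library total. The submitters' processing notes list cutadapt, STAR and edgeR with neither role nor version; for the counting program and for multiply matching reads, the sources used here give nothing. Value columns were matched to pools by library name. Gene lengths were solved from counts and RPKM and were the same in every pool, within 0.01 bases, for the 80 members with reads.

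All rows were tested with the quasi-likelihood functions glmQLFit and glmQLFTest (edgeR 4.0.16, R 4.3.3; two-sided, TMM, filterByExpr with a minimum count of 10, genotype as single term), with Benjamini-Hochberg adjustment over 20942 rows and a threshold of 0.05. SE is the log2 fold change over the square root of F. The procedure was run on simulated counts of independent pools. That run checked only that fitted log2 fold changes lay near the simulated ones, and it set no limit on false calls. Pools are separate groups of plants, so their spread includes differences between plants, each pool averaging 2. Alternatives were DESeq2 1.42.0, limma 3.58.1 on log2(RPKM + 1) and log2(RPKM + 0.1), RLE factors, other filters, the replicate block, each pool left out, summed rows and shifted block ends. Identifier order was taken as chromosome order.

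Members named with all values were those called, those of at least 1 CPM whose pools did not overlap (up to 15), the 5 highest in CPM, the first and last tested, and the 2 nearest tested loci on each side. The neighbours of these in the stretch, Solyc05g013180, Solyc05g013530, Solyc05g013535, Solyc05g013560 and the pairs in the ratios and agreement were added after their values were seen.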

Additional observations from a re-analysis of the deposited data

How the results depend on the processing

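Leaving out replicate 1 of each genotype together, and the alternatives for the count of members with pools apart, were chosen after seeing the data. The count of 5 genes called by edgeR over all rows was 48 with DESeq2, 13 with no filter, 10 with the replicate block, 21 when replicate 1 of each genotype was dropped and 746 at an unadjusted p under 0.05. Limma called 0 on either RPKM scale (pseudocounts 1 and 0.1), where 774 and 746 had an unadjusted p under 0.05. Dropping single pools gave 0 to 18 calls: 0 without fw2.3-D replicate 2, fw2.3-D replicate 3, fw2.3-WT replicate 2 or fw2.3-WT replicate 3, 5 without fw2.3-WT replicate 1, and 18 without fw2.3-D replicate 1, and 426 to 1472 genes reached an unadjusted p under 0.05 there. Of the members, 0 were called; this was 2 with DESeq2 (Solyc05g013260, adjusted p = 0.00694, and Solyc05g013320, adjusted p = 0.0294) and 8 at an unadjusted p under 0.05; it was 0 in the other 16 alternatives, which include each pool left out (6 to 9 members at an unadjusted p under 0.05). The 7 members with pools apart and lower in fw2.3-D were 7 with raw CPM or RPKM and 16 when replicate 1 of each genotype was dropped. Dropping these left fewer pools to separate, and the share over all tested rows went from 4.34% to 16.1%. The cause was not tested. The median log2 fold change of the block ran from -0.04 to 0.02 and the summed ratio from 0.923 to 0.973. Agreement of neighbours ran from 52.9% to 55.4%. The number below 0 was 26 of 51 and 48 of 91 when the ends were moved. As a share, it ran from 49.3% (without fw2.3-D replicate 3) to 59.2% (limma on either RPKM scale). Each stayed within the spread between pools or, for the count, within 1.5 times. The log2 fold changes of the 7 members kept their sign in every alternative, which their non-overlapping groups fix when single pools are dropped. When single pools were dropped, that of Solyc05g013260 ran from -1.61 to -1.11, that of Solyc05g013320 from -0.85 to -0.55 and that of Solyc05g013530 from -4.86 to -3.09. Same-numbered pools had deviations with correlations of 0.346 for replicate 1, -0.07 for replicate 2 and 0.0558 for replicate 3. Replicates 2 and 3 thus showed little pairing. The first pools resembled each other more, and their chi-square of 13.5 per gene was the lowest of all pairs of pools. What the first pools share was not tested. Depth limits detection to about 0.105 to 0.135 CPM per pool, so lower expression of the 19 members without reads was not detectable.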
